A study of Mus musculus with 2 samples.

Results

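Mouse genes whose symbol is Gm and a number are predicted genes that have not yet received a name of their own. Among the 2202 microRNA (miRNA) genes counted here, 1021 carried such a symbol in the GENCODE M21 annotation. The 42 genes described below were chosen by their measured counts, as the Gm miRNA genes with at least 1 read on the gene's strand over both libraries together. Genes contained in Sfmbt2, a gene on chromosome 2 that hosts a large repeated miRNA cluster, were left out, which removed 1 Gm gene with a read and 47 without. Of the 973 Gm genes that remained, 42 had a read (4.32%) and 931 had none. For comparison, 682 of the 1174 genes with a Mir symbol had a read (58.1%).

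The reads came from RNA shorter than 30 nt of the left cerebral cortex of adult B6CASTF1/J hybrid mice aged 18 to 20 months, untreated as far as the labels say. The labels give 1 group with 2 libraries, biological replicates 1 and 2, so the only comparisons possible are between genes and between these libraries. Their tissue records are separate but name the same donor record, so whether different animals were sampled is not known, and any spread between these libraries may be technical. The sample fields give the sex as male and the free text as female, and sex was not used.

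A miRNA gene is transcribed into RNA that folds into a hairpin, which the nucleases Drosha and Dicer cut to a duplex of short strands called arms. One arm is loaded onto an Argonaute protein and pairs with target mRNAs mainly through its seed, the bases near its 5′ end. Some hairpins reach Dicer without Drosha, such as mirtrons, which are short introns released by splicing, and small fragments of snoRNAs, tRNAs and mRNAs can also enter a small RNA library. An annotated hairpin with a read is therefore not by itself a miRNA, and the position and sequence of each locus are given beside its reads.

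RefSeq listed 5 of the 42 genes by symbol, with 7 mature arms between them (build GRCm38.p6). They are shown because a named arm is the part of the hairpin that acts, and the capitals mark the seed, bases 2 to 8, counted from the 5′ end. No seed was shared with another RefSeq mature miRNA of the mouse or with another of the 7. Genes that overlap the hairpin, such as its host, were left out of the search for the arms. No arm occurred in any other annotated gene.
mmu-miR-935 (Gm23450): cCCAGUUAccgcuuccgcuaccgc
mmu-miR-3552 (Gm22650): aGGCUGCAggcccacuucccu
mmu-miR-9769-5p (Gm38670): aGGCACAGaauuaggcccgacc
mmu-miR-9769-3p (Gm38670): uAGGGUCUguucuguguccucc
mmu-miR-9768-5p (Gm38671): uGGCACUCggaggacggcacugu
mmu-miR-9768-3p (Gm38671): aCUGCCUUccuuuguguggcccag
mmu-miR-3154 (Gm23363): cAGAAGGGgagucgggagcgga

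The hairpins of 4 of these genes are given from the GENCODE M21 transcripts (mm10), with the RefSeq arms in capitals, to show on which side of the fold the arm lies. Gm23450 lies on chromosome 7, 3415066 to 3415156, plus strand, and Gm22650 on chromosome X, 146999405 to 146999509, plus strand. Gm38670 lies on chromosome 7, 30552828 to 30552904, plus strand, and Gm23363 on chromosome 2, 32318265 to 32318343, plus strand.
Gm23450: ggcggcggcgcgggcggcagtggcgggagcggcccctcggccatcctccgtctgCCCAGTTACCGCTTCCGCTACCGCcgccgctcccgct
Gm22650: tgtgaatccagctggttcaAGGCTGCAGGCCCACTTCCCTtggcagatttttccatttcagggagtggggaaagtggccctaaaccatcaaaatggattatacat
Gm38670: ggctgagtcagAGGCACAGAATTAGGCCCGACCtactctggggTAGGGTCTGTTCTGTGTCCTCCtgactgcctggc
Gm23363: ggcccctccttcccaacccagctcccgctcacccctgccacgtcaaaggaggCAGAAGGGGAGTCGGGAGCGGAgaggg

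One short hairpin of 57 bases was annotated at several loci, and it is shown because the copies carried very different read counts. Only annotated transcripts were searched, so a match of these bases to an RNA outside them, of whatever kind, was not tested. Gm24270 on chromosome 9 (56223715 to 56223771, minus strand, in an intron of Peak1) and Gm23935 on chromosome 16 (11144125 to 11144181, plus strand, opposite an intron of Zc3h7a) have the same 57 bases. Gm24245 on chromosome 4 (139338304 to 139338360, plus strand) has these bases as well. The other copies differ at the bases in capitals, and Gm25911 is also 1 base shorter.
Gm24270: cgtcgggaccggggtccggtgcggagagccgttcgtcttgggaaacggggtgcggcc
Gm24187: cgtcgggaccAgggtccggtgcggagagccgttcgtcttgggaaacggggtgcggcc
Gm23388: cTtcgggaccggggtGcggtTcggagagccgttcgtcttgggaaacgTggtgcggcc
Gm25911: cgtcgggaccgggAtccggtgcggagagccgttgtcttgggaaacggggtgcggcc

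The next loci are shown because their sequence ties the hairpin to another kind of RNA. Gm24589 (chromosome 17, 24594978 to 24595071, plus strand) covers an intron of Pkd1 from its first to its last base, and the capitals mark the first 2 and last 2 bases of that intron. Gm47277 (chromosome 8, 13876091 to 13876184, plus strand) overlaps the snoRNA gene Gm24698 over the bases in capitals. Gm44456 (chromosome 13, 21924928 to 21925016, minus strand) shares the run in capitals with n-TStga1, a miRNA gene of the annotation that is named as a tRNA. Gm25749 (chromosome 3, 80692203 to 80692313, minus strand) overlaps a coding exon of Gria2 and shares the run in capitals with Gm23811, a hairpin in the coding sequence of Gria4. Gm23134 is given only for the stretch at chromosome 2, 157562404 to 157562426, minus strand, where the capitals match mmu-miR-708-5p, printed below it from RefSeq with its seed in capitals.
Gm24589: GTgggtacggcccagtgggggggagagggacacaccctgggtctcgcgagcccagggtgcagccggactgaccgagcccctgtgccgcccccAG
Gm47277: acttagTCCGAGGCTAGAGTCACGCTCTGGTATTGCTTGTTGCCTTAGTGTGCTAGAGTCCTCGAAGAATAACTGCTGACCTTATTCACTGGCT
Gm44456: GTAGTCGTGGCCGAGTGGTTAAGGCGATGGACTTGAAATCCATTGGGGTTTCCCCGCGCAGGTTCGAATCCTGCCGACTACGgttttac
Gm25749: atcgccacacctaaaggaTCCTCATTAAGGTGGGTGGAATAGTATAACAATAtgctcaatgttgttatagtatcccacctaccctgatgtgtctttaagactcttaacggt
Gm23134: AGGAGCTTACAATCTAGCTGGGg
mmu-miR-708-5p: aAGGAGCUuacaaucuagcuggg

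Replicate 1 held 8041772 reads, of which 2381663 (29.6%) lay on the strand of a miRNA gene, and replicate 2 held 12239366, of which 4436398 (36.2%) did. Levels are given in CPM, the reads of a gene in every 1000000 of these gene-strand reads, so that 1 read was worth 0.420 CPM in replicate 1 and 0.225 CPM in replicate 2. A count of 0 allowed up to 1.26 and 0.676 CPM. Reads that mapped to several places were set apart on a line of their own, 35.6% and 44.8% of the libraries, so genes with exact copies can be undercounted. Of the markers used to check the tissue, neuronal miRNAs summed to 86196 and 66090 CPM and oligodendrocyte miRNAs to 4678 and 3496 CPM. Endothelial Mir126a stood at 17007 and 18138 CPM, the mural cell list at 10855 and 5719 CPM and the blood list at 1788 and 1821 CPM. The liver list stood at 58.4 and 76.0 CPM, the muscle list at 17.2 and 20.3 CPM and the embryonic stem cell list at 1.68 and 1.13 CPM. The sums of the neuronal, oligodendrocyte and mural cell lists were thus higher in replicate 1. The part of these lists in the differences between the libraries was not tested. Within the oligodendrocyte list, Mir338 was higher in replicate 1 (3079 and 1778 CPM) and Mir219a-2 in replicate 2 (1600 and 1718 CPM). Most of the blood sum came from Mir150, which was higher in replicate 2 (1701 and 1769 CPM). The other blood miRNAs stood far lower and went the other way. Mir451a (49.97 and 22.54 CPM), Mir144 (20.57 and 17.36 CPM) and Mir223 (16.38 and 11.50 CPM) were higher in replicate 1. Within the neuronal list, Mir132 was higher in replicate 1 (69646 and 43349 CPM). Mir128-1 (14354 and 19064 CPM) and Mir138-1 (2193 and 3675 CPM) were higher in replicate 2. The 3 loci of miR-124, which defines neurons, had at most 1.26 CPM in either library, and the neuronal sum came from Mir132, Mir128-1 and Mir138-1. Reads that mapped to several places are not counted at these loci, and their part in the low miR-124 counts was not tested.

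The 42 genes together held 1251 reads in replicate 1 and 2489 in replicate 2. That was 0.0525% of gene-strand reads (95% exact binomial interval 0.0497 to 0.0555) and 0.0561% (0.0539 to 0.0584), a mean of 0.0543% ± 0.00253 (SD, n = 2). Gm23450 alone held 85.7% and 86.4% of these reads. The other 41 genes shared 179 reads in replicate 1 and 338 in replicate 2, or 75.2 and 76.2 CPM. All such intervals, and the limits for a count of 0, reflect counting error alone, because PCR copies of a molecule are counted as separate reads.

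Most of the genes lay just inside the rule. A single read was the whole evidence for 10 genes, 20 had 2 to 9 reads, 10 had at least 10 but under 100 reads and 2 had 100 or more. A read was seen in both libraries for 21 genes, only in replicate 1 for 8 and only in replicate 2 for 13. At least 10 reads in total were found for 12 of the 42 (28.6%), against 457 of the 682 Mir genes with reads (67.0%). The 931 genes just outside the rule had a total of 0.

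**Figure D1:**
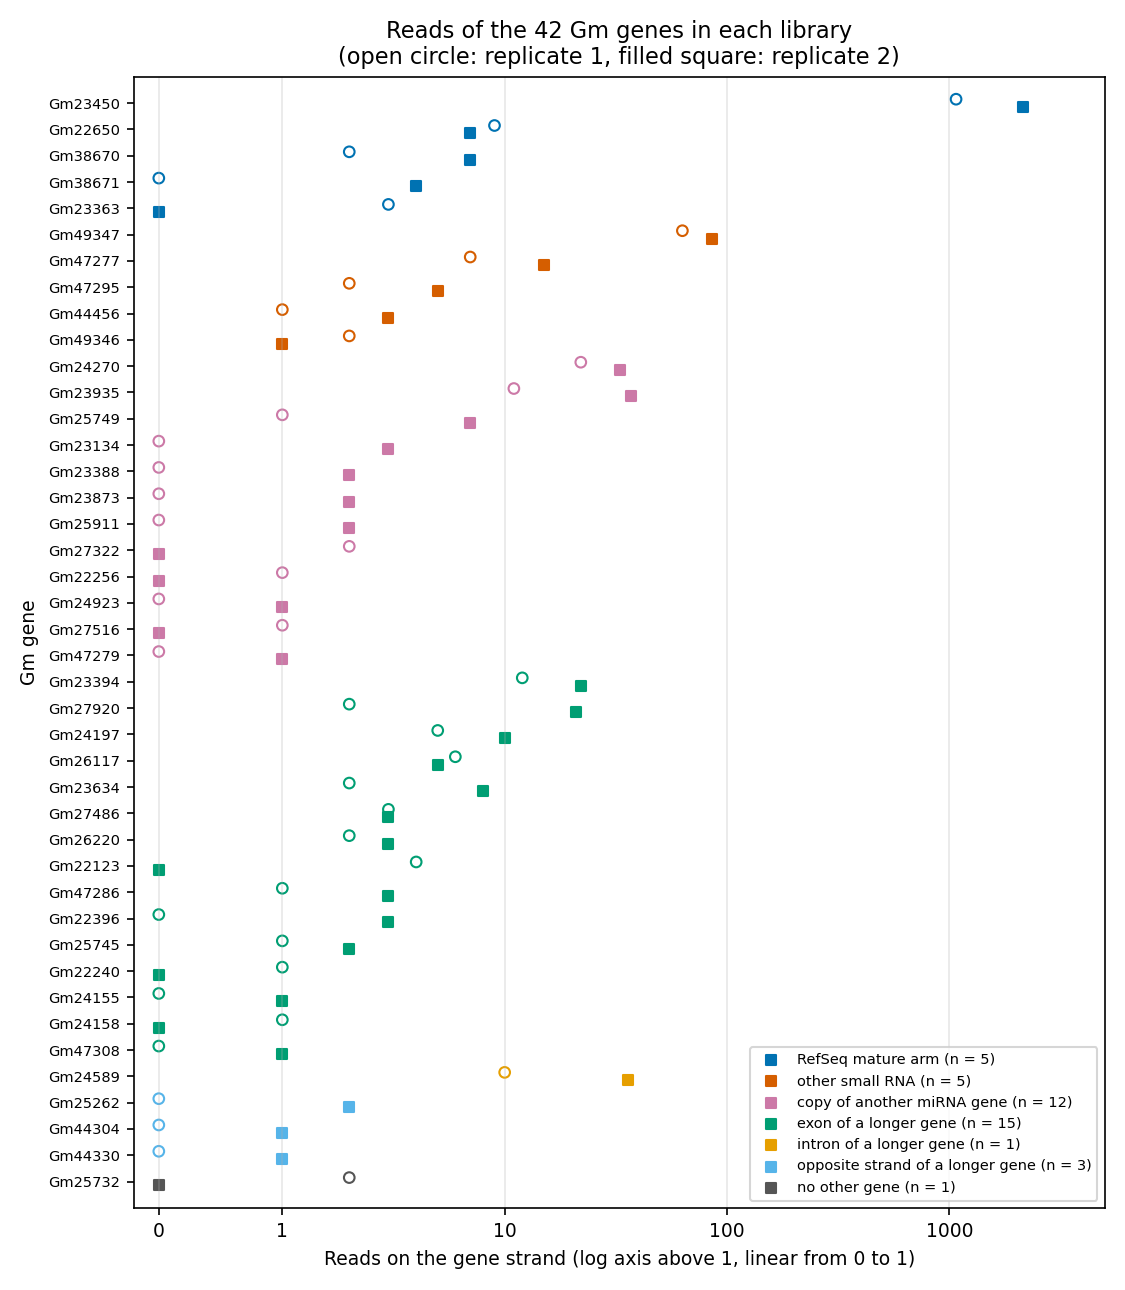
Gene-strand reads of each of the 42 Gm genes in replicate 1 (open circles) and replicate 2 (filled squares), on an axis that is logarithmic above 1 read, with colours for the kind of locus. Gm23450 stood at 1072 and 2151 reads, and no other gene was above 86 reads in either library.

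Genes with a RefSeq arm came first in reads because of Gm23450, the locus of miR-935. It lies in the coding sequence of Cacng8, which encodes an auxiliary subunit of AMPA-type glutamate receptors, on the same strand. Its 1072 reads in replicate 1 and 2151 in replicate 2 made 450.1 and 484.9 CPM, a mean of 467 ± 24.6 CPM (SD, n = 2). The libraries were close, with a fold of 1.06 (replicate 2 over replicate 1, exact 95% interval 0.982 to 1.14). Scaled to hairpin length, Gm23450 reached 514 CPM per 100 bases, against 20.6 CPM per 100 bases for the next gene, Gm49347. In the predicted fold of the hairpin, 19 of the 24 bases of miR-935 were paired, and the hairpin was 79.1% G or C. The reads were counted over the whole hairpin. Whether they are miR-935 or other short pieces of the Cacng8 mRNA cannot be told apart from counts per gene.

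The other 4 genes with a RefSeq arm were near the limit of detection. Gm22650, which holds miR-3552 in an intron of the serotonin receptor gene Htr2c, had 9 and 7 reads in replicates 1 and 2, with a mean of 2.68 ± 1.56 CPM (SD, n = 2). Htr2c hosts further miRNA genes on the same strand. Mir1298 there had 201 and 403 reads, Mir1264 had 70 and 108, Mir448 had 40 and 76, and Mir764, which lies 2749 bases from Gm22650, had 25 and 88. Mir1912 had 0 and 2, and Gm24627, an unnamed hairpin in the same host, had none in either library.

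Gm38670, with both arms of miR-9769 and in a noncoding exon of the small heat shock protein gene Hspb6, had 2 and 7 reads. Gm38671, with both arms of miR-9768, lies on chromosome 8 (12947941 to 12948070, plus strand) in the 5′ UTR of Mcf2l, a guanine nucleotide exchange factor gene, and had 0 and 4 reads. Gm23363, with miR-3154, had 3 and 0 reads and lies opposite an intron of Dnm1, the gene of the neuronal endocytosis GTPase dynamin 1. It is 116 bases from Mir199b, which had 1 and 3 reads. Their arms were mostly paired in the predicted folds, with 20 of 22 bases for miR-9769-5p, 19 of 22 for miR-9769-3p and 19 of 22 for miR-3154. The arms of miR-9768 had 18 of 23 and 21 of 24 bases paired, and miR-3552 had 16 of 21.

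The 57-base hairpin printed above with its copies gave reads at some loci and not at others. Gm24270 had 22 reads in replicate 1 and 33 in replicate 2 (8.34 ± 1.27 CPM, SD, n = 2), and Gm23935, with the same bases, had 11 and 37 (6.48 ± 2.63 CPM). The third copy with these bases, Gm24245, had 0 and 0. Gm24187, with 1 changed base, also had 0 and 0, while Gm23388, with 4 changed bases, and Gm25911 had 0 and 2 each. Reads that lie wholly within the shared bases cannot tell the exact copies apart, and reads that mapped to several places were counted at no gene. How the counted reads came to be placed at 2 of the 3 exact copies was not tested. Gm25732, a hairpin of 60 bases on chromosome 4 (139338206 to 139338265, plus strand), is 38 bases from Gm24245 and had 2 reads in replicate 1 and 0 in replicate 2. It was the 1 gene with no other gene around it, no shared word of 20 bases and no RefSeq arm.

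In all, 12 genes were classed as copies, meaning that they share a word of 20 bases with another miRNA gene on the same strand. Genes with a RefSeq arm or tied to another small RNA were classed first and are not among them. Words shared with genes named as tRNAs left aside, 14 of the 42 shared such a word in any class. The 12 classed as copies held 38 reads in replicate 1 and 88 in replicate 2. Gm25749, at the hairpin of Gria2, had 1 and 7 reads, while Gm23811, which shares 34 bases with it in Gria4, had none. Gria2 and Gria4 encode subunits of AMPA-type glutamate receptors, and these transcripts are known for a hairpin around an edited codon. Gm23134, in an intron of Blcap and opposite the imprinted Nnat, had 0 and 3 reads. It shares 23 bases with Mir708, including 22 bases of its 5′ arm, and Mir708 had 4652 and 7261 reads. Whether the 3 reads belonged to Mir708 could not be told from gene counts.

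Gm24923, on chromosome 7 (62078718 to 62078805, minus strand), holds the mature miR-344i of RefSeq in full and had 0 and 1 reads, while Mir344i itself had none. It also shares 20 bases with Mir344f, which had 7 and 5 reads. Gm23873 shares 22 bases with Mir344d-1 and had 0 and 2 reads. Gm27322, in the 5′ UTR of the ubiquitin ligase gene Smurf2, shares 20 bases with Mir8112 and had 2 and 0 reads, against 26 and 91 at Mir8112. Its words of 20 bases occur in 350 other annotated genes, the highest number among the 42.

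Hairpins tied by the annotation to other small RNAs held 75 reads in replicate 1 and 110 in replicate 2. That was 35.8% of the reads of the 41 genes other than Gm23450. Gm47277 had 7 and 15 reads (3.16 ± 0.313 CPM), lies in an intron of Champ1 and overlaps the snoRNA gene Gm24698 over 88 of its 94 bases. It also shares 38 bases with Snora3, an H/ACA snoRNA, the class that guides the change of uridine to pseudouridine. Gm47295 (chromosome 12, 69159518 to 69159596, plus strand) had 2 and 5 reads and overlaps Rn7s1, a gene of the 7SL RNA of the signal recognition particle, over 77 of 79 bases. Gm47299, which carries all 79 bases of it, had none. Gm49346 (chromosome 16, 23110753 to 23110858, plus strand) had 2 and 1 reads and overlaps Snora81 over 103 of 106 bases in Eif4a2, a translation initiation factor gene.

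Gm44456 had 1 read in replicate 1 and 3 in replicate 2. It shares 82 bases with n-TStga1, which had none, and 33 bases with n-TSaga9, which had 12 and 37 reads. The second most abundant gene of the 42 by reads was also of this kind. Gm49347, on chromosome 18 (35557132 to 35557242, plus strand), overlaps Snora74a over 96 of its 111 bases. It had 63 reads in replicate 1 and 86 in replicate 2, or 26.5 and 19.4 CPM, so its level was higher in replicate 1. Its fold was 0.719 (exact 95% interval 0.513 to 1.01, adjusted p = 0.0876 by the two-sided exact binomial test with Benjamini-Hochberg adjustment).

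Many of the remaining genes lay in exons of protein-coding genes, above all in 5′ UTRs. Of the 42 genes, 14 overlapped a 5′ UTR on the same strand (33.3%), against 18 of 931 Gm genes without reads (1.93%) and 26 of 682 Mir genes with reads (3.81%). An exon of any kind was overlapped by 25 of the 42 (59.5%), against 13.3% of Gm genes without reads and 28.6% of Mir genes with reads. Among the 492 Mir genes without reads, 1.63% overlapped a 5′ UTR and 15.0% an exon of any kind. These shares describe the annotation and carry no test. Of the Gm genes without reads, 89.2% share a word of 20 bases with a gene elsewhere, and reads from several places were counted at no gene. The part of this in the shares was not tested. The 14 genes in 5′ UTRs held 32 reads in replicate 1 and 76 in replicate 2, and their GC content ran from 42.1% to 91.6% with a median of 68.8%. Whether these reads are cut hairpin arms or other short pieces of the host mRNA cannot be told apart from counts per gene.

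Gm23394 (chromosome 12, 55821063 to 55821153, minus strand), in the 5′ UTR of Ralgapa1, a GTPase-activating protein gene, led this group with 12 and 22 reads (5.00 ± 0.0562 CPM). Gm27920 (chromosome 10, 123196876 to 123196971, minus strand), across the 5′ UTR and coding sequence of the deubiquitinase gene Usp15, had 2 and 21 reads (0.840 and 4.73 CPM). Gm26117 (chromosome 15, 74563821 to 74563915, plus strand), in the 5′ UTR of the adhesion receptor gene Adgrb1, had 6 and 5 reads. It had the highest GC content of the 42, at 91.6%. Gm23634 (chromosome 4, 134468364 to 134468454, plus strand), in the 5′ UTR of the tubulin-binding Stmn1, had 2 and 8 reads. The other 10 genes in 5′ UTRs had 1 to 6 reads in total, and their hosts included Sbno1, Ccdc136, H1fx, Hsp90b1, Agfg1 and Rab11a. Among them, Gm27486 at Sbno1 had 3 and 3 reads and shares 20 bases with Mir8112 on the opposite strand.

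Outside the 5′ UTRs, Gm24197 (chromosome 8, 84925525 to 84925633, minus strand) lies in the coding sequence of the kinase gene Mast1 and had 5 and 10 reads (2.18 ± 0.109 CPM). Gm22123, in the 3′ UTR of the nucleic acid-binding Purb, had 4 and 0 reads. Gm24155, with 0 and 1 reads, lies 791 bases from Mir137, a neuronal miRNA that had 16310 and 24373 reads. It lies in an exon of the noncoding Gm9916.

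Gm24589 was the 1 gene of the 42 that spans an annotated intron from end to end, as a mirtron does. Its host Pkd1 encodes the membrane protein polycystin 1. Gm24589 had 10 reads in replicate 1 and 36 in replicate 2, or 4.20 and 8.11 CPM (6.16 ± 2.77 CPM, SD, n = 2). The level was higher in replicate 2, with a fold of 1.90 whose exact 95% interval of 0.922 to 4.28 includes 1. Introns were spanned in this way by 1 of 931 Gm genes without reads (0.107%) and by 15 of 682 Mir genes with reads (2.20%).

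Further features of sequence and position, none of them used to choose the genes, were counted in the same sets. A word of 20 bases shared with a gene elsewhere was found in 21 of the 42 (50%), against 89.2% of Gm genes without reads, 22.9% of Mir genes with reads and 41.9% of Mir genes without. Since reads from several places stand under no gene, a gene with copies could lose reads, and the part of this in the lack of reads at the other Gm genes was not tested. Wholly inside another gene on the same strand lay 27 of the 42 (64.3%), against 30.7% of Gm genes without reads and 78.0% of Mir genes with reads. A RefSeq arm annotated at the gene's own locus was held by 5 of the 42 (11.9%), by 6 of the 931 Gm genes without reads (0.644%) and by 622 of the 682 Mir genes with reads (91.2%).

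**Figure D2:**
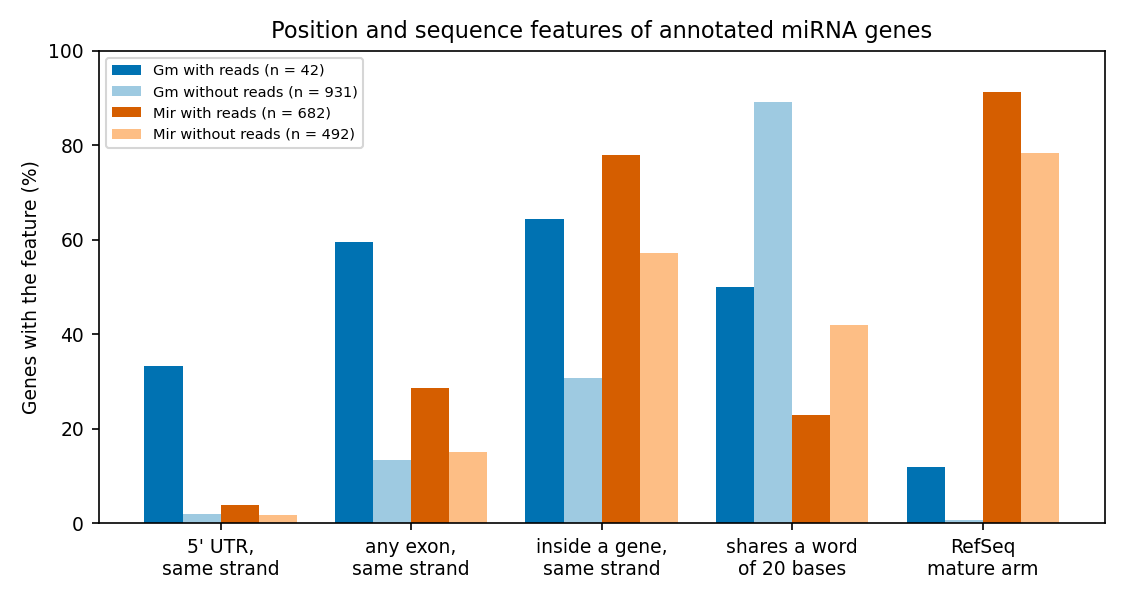
Percent of genes in each of 4 sets (colours) that overlap a 5′ UTR or any exon, lie wholly inside another gene, share a 20-base word with a gene elsewhere, or hold a RefSeq mature arm. Overlap with a 5′ UTR was seen in 33.3% of the Gm genes with reads and in 1.93% of those without.

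The 42 hairpins had a higher median GC content than the other sets. Their median GC content was 64.8%, against 51.0% for Gm genes without reads, 53.0% for Mir genes with reads and 47.2% for Mir genes without. Their median minimum free energy, where a lower value means a more stable predicted fold, was -40.5 kcal/mol per 100 bases. The median was -31.8 for Gm genes without reads, -42.6 for Mir genes with reads and -38.0 for Mir genes without. The median share of bases paired in the predicted fold was 64.5% in the 42 and 61.3% in Gm genes without reads, below the 69.8% of Mir genes with reads and below the median of Mir genes without. GC content lowers the free energy by itself, and the measures were not separated. The least stable of the 42 was Gm47308, in the 5′ UTR and coding sequence of Rab11a, at -22.8, and the most stable was Gm26117 at -63.2.

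**Figure D3:**
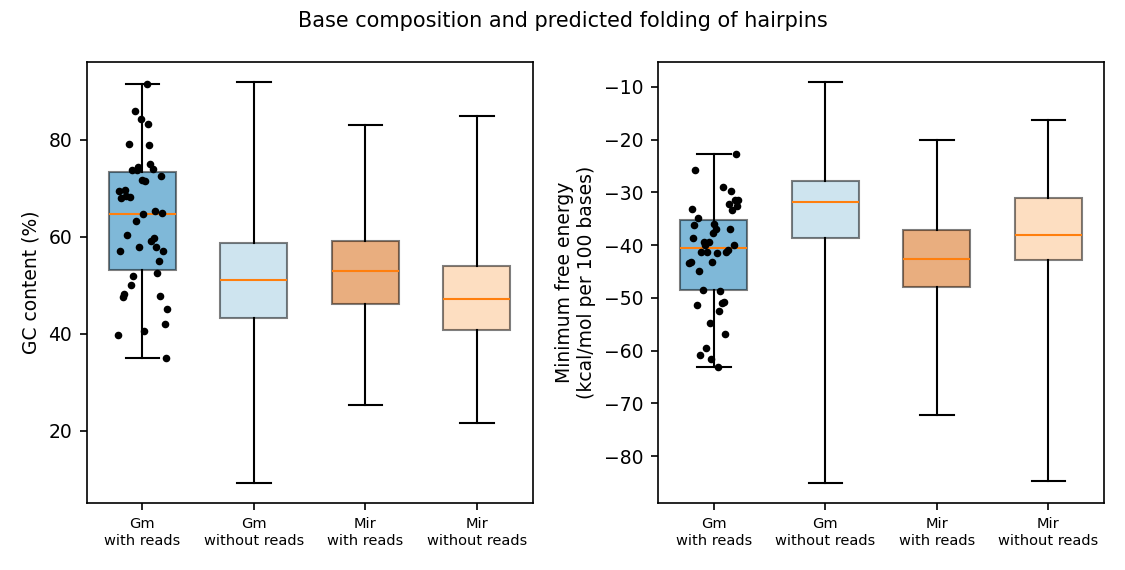
GC content (left, percent) and RNAfold minimum free energy (right, kcal/mol per 100 bases) of the hairpins in each set, with boxes for the quartiles and median, whiskers to the lowest and highest gene, and black points for the 42 Gm genes with reads. The box of the Gm genes with reads is centred at 64.8% GC, above the other medians of 47.2% to 53.0%.

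The libraries were compared gene by gene with a two-sided exact binomial test after TMM scaling, which weighs counting noise alone and not the spread between animals. Among all 472 miRNA genes with at least 10 reads in total, 246 passed an adjusted p of 0.05 (52.1% of the 472). Those that passed and were higher in replicate 2 numbered 130 (27.5% of the 472). Of the 12 Gm genes with that many reads, 1 passed. This was Gm27920 at Usp15, which was higher in replicate 2 by 5.53-fold (exact 95% interval 1.35 to 48.6, adjusted p = 0.0159 by the exact binomial test with Benjamini-Hochberg adjustment). In total, 10 of the 12, Gm27920 among them, had fewer than 100 reads.

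The median fold of the 12 was 1.06, against 1.05 for all genes tested, and 7 of the 12 folds were above 1. Gm49347 and Gm27920 were at an unadjusted p under 0.05. Gm23450 had the narrowest interval of the 12 (0.982 to 1.14) and Gm27920 the widest. For Gm24270 and Gm23935, the exact copies, the folds were 0.790 (exact 95% interval 0.447 to 1.42) and 1.77 (0.885 to 3.85), so the copies lay on opposite sides of 1 with overlapping intervals. The fold of Gm22650 was 0.410 (0.130 to 1.24) and that of Gm23634 was 2.11 (0.420 to 20.4). With an edgeR exact test that allows for spread between libraries, none of the 12 passed and 1 was at an unadjusted p under 0.05. That spread was estimated from these same libraries, so the difference under test was itself counted as spread. Few passes were therefore likely whether or not the genes differ, and the result cannot decide between these.

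**Figure D4:**
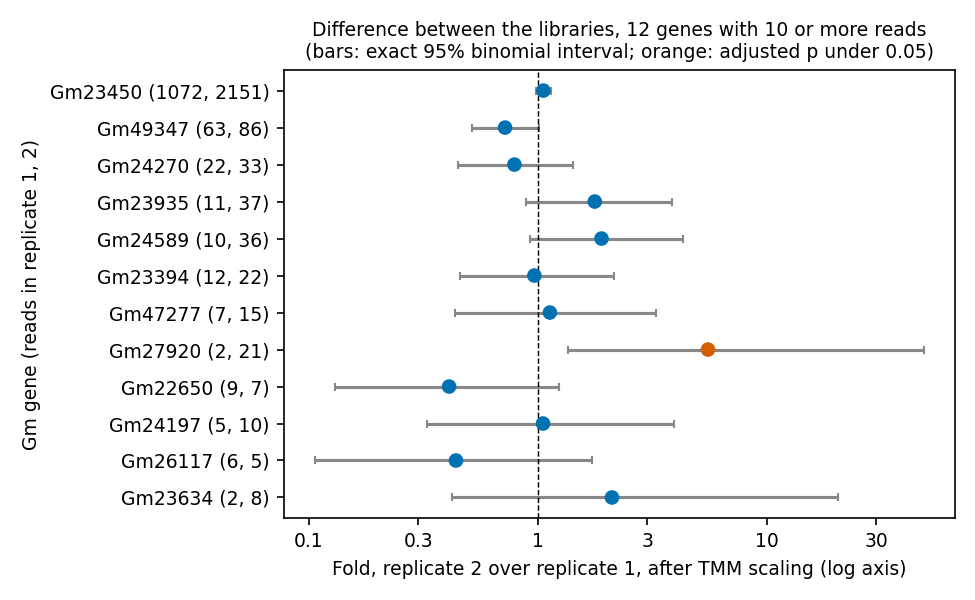
Fold of replicate 2 over replicate 1 (points, log axis) with exact 95% binomial intervals (bars) for the 12 Gm genes that reached 10 reads over both libraries, with each library's reads beside the symbol. The interval of Gm27920 (1.35 to 48.6) lies wholly above 1, and those of the other 11 genes include 1.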

How the data were processed

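Per the labels, small RNA was sequenced from 2 samples of 1 group. The deposited tables hold whole-number read counts per miRNA gene, made by the authors without normalization. Per the submitters' processing notes, the build was mm10 and the annotation M21, and the aligner is not given in the sources used here. The counts on the gene's strand, a column identified from the values, were used, and the 4 summary lines were kept out of totals. All 2202 identifiers matched GENCODE M21, which gave symbols, positions and hairpin sequences.

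The genes and lists were chosen with earlier results of these data known. Each gene was put in the first class it met, in the order RefSeq arm, other small RNA, copy of another miRNA gene, exon, intron, opposite strand, none. For location, a 5′ UTR took precedence over other exons. Words of 20 bases were looked up, on either strand, in the transcripts of all annotated genes other than those overlapping the hairpin, without a genome sequence. Hairpins were folded with RNAfold 2.7.2. TMM factors came from edgeR 4.0.16 (R 4.3.3) over the 472 genes with at least 10 reads. The exact binomial test (scipy 1.17.1) was adjusted over these genes (Benjamini-Hochberg, threshold 0.05). It was also run on data simulated with counting noise alone, so its error rate under a wider spread between libraries was not tested. With 1 group, no quasi-likelihood test could be fitted. Named are genes with at least 10 reads, the 10 of highest mean CPM, any gene called, and those with a RefSeq arm, a word shared with a Mir gene that has reads, or another small RNA. Other genes named were chosen after their values were seen. Alternatives covered scaling, read minimum, strand column, total, word length, overlap and each library alone.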

Additional observations from a re-analysis of the deposited data

Results flagged for a closer look

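Reads on the strand opposite to the 42 genes, which enter only the alternative with both strands counted, numbered 1 in replicate 1 and 4 in replicate 2. The 4 reads of replicate 2 are a sum over the 42 genes and lay at Gm26117 (2), Gm23363 (1) and Gm23134 (1). As a sum they exceed the 3 that a count of 0 allows. That limit is for 1 gene, and no gene exceeded it on this strand.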

How the results depend on the processing

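Of the 12 genes tested, 1 passed as described, and 2 passed with RLE size factors (Gm49347 added, higher in replicate 1, adjusted p = 0.0467 by the exact binomial test) and 2 with TMM over all genes, chosen after seeing the data (Gm23450 added, 1.13-fold higher in replicate 2, adjusted p = 0.00206). With no read minimum, all 42 genes were tested and 2 passed (Gm22123 added, with 4 reads in total, higher in replicate 1, adjusted p = 0.0431 by the exact binomial test). The edgeR exact test with a common dispersion called 0 of 12 (1 at an unadjusted p under 0.05) and 2 of all 472 genes, at a biological coefficient of variation of 0.351. The dispersion came from the same libraries that were compared, so their difference was counted as spread. Gm27920 passed in every setting of the binomial test. The mean share of gene-strand reads was 0.0594% with both strands counted, 0.0179% of all reads, and 0.00757% without Gm23450, an alternative chosen after seeing the data. Leaving out a library gave shares of 0.0525% to 0.0561% and 6 to 9 genes with at least 10 reads, with 6 in replicate 1 alone. Words of 18 and 22 bases gave 29 and 20 genes with shared sequence, and overlap of any length gave 31 genes inside or across another gene. No paired analysis was possible because the labels give 1 group. The comparison of libraries could not be repeated without a library, since 1 would remain. With 30 of the 42 genes under 10 reads, depth limited every statement on them.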
